A study of Mus musculus with 8 samples.

Results

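The lymphoid lineage transcription factors, 10 genes that control the formation and function of lymphocytes, were followed in RNA of sorted pericytes and smooth muscle cells (SMCs) from mouse skeletal muscle. The genes were taken by symbol from the deposited expression table, in the order Pax5, Ebf1, Spib, Pou2af1, Tcf7, Bcl11b, Gata3, Tbx21, Eomes and Foxp3. The 10 symbols had 11 of the 37979 gene rows, because Ebf1 is the name of both a protein-coding gene and a short pseudogene row. Both groups were taken from the hindlimb muscle of mice of both sexes aged 3 to 4 months, with the genotype Ai14+/-;SM22α-Cre+, in which Cre under the SM22α promoter turns on a lasting tdTomato label. Cells low for DAPI and negative for CD31 and CD45 were sorted as PDGFRβ+tdTomato- (pericytes) or PDGFRβ+tdTomato+ (SMCs), as the labels and methods give the gate. A supplementary legend of the study instead writes both populations as CD31+, so its sources differ on the CD31 gate. In the methods CD31 and CD45 were stained in the same colour, FITC, and FITC-negative cells were sorted. Each group had 4 libraries, and each library pooled several sorts to reach about 60000 cells. The label marks any cell in which that promoter was active.

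In the lymphoid lineages, a few transcription regulators set and hold cell identity. Ebf1 and Pax5 open and maintain the B cell programme, Spib is an ETS family factor of B cells, and Pou2af1 is a coactivator that works with octamer-binding proteins. Tcf7, Bcl11b and Gata3 carry progenitors into the T cell lineage. Tbx21 and Eomes, both T-box factors, drive effector and natural killer (NK) functions, and the forkhead factor Foxp3 defines regulatory T cells. Ebf1 and Gata3 are also used outside the blood, Ebf1 for example in stromal and fat-forming cells.

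The promoter windows of 4 members are printed because these genes stand for the patterns described below. Ebf1 was the member that did not pass the test, Tcf7 had the highest pericyte level, and Tbx21 and Eomes were the T-box pair whose highest pericyte library was 4.09 and 4.06 times the lowest. Each window runs from 250 bases before to 50 bases after a transcription start in RefSeq (build GRCm38.p6), 5′ to 3′ on the gene's strand. The Ebf1 window printed is chr11:44617850-44618149 (plus strand), and the Tcf7 window printed is chr11:52282546-52282845 (minus strand). Ebf1 and Tcf7 each have another window (chr11:44619978-44620277 and chr11:52282965-52283264), which held no motif match and is not printed. The Tbx21 window is chr11:97115282-97115581 (minus strand) and the Eomes window is chr9:118477939-118478238 (plus strand). Capitals mark motif matches.
Ebf1: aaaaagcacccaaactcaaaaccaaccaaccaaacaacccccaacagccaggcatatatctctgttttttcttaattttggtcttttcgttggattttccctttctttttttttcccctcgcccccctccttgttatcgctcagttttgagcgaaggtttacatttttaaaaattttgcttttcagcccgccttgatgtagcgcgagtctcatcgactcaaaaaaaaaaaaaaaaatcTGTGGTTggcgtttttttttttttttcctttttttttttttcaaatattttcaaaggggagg
Tcf7: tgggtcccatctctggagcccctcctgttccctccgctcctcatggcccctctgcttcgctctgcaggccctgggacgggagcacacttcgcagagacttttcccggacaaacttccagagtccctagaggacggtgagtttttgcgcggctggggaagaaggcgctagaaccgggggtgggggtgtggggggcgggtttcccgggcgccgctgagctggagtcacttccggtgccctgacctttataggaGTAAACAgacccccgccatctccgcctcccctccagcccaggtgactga
Tbx21: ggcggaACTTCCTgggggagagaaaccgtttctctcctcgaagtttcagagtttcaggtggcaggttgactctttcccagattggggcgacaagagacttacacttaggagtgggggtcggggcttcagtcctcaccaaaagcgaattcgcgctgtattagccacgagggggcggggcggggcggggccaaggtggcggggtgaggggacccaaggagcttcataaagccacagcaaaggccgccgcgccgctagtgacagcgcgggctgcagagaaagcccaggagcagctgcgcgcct
Eomes: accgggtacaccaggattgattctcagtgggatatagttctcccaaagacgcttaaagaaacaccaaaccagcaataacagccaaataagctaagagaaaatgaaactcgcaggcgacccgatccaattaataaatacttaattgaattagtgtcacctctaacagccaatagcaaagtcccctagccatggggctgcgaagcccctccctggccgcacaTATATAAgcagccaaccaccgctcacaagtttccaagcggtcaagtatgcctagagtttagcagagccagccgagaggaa

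RefSeq had 13 windows for the 10 members, and all 10 members matched. The letters of 9 motifs were searched on both strands, and 4 of them were found in no member window. These were the octamer ATGCAAAT, held by 1.74% of all windows, and the EBF palindrome, held by 0.904%. The TCF/LEF letters CTTTGAT (3.73% of all windows) and the T-box letters AGGTGTGA (1.28%) were the others. No match says only that these letters are not in the window. No window of a member held more than 1 match, so none overlapped. Of the 13 windows, 5 held a match (38.5%), against 33.3% of all 32851 windows. The Ebf1 window above held the RUNX letters TGTGGTT, which 5.27% of all windows hold. The printed Tcf7 window held the forkhead letters TGTTTAC on the opposite strand, which 3.65% hold. The Tbx21 window held the ETS letters AGGAAGT on the opposite strand, as did 9.35% of all windows. The Eomes window held the TATA box letters TATATAA, as did 3.24%. The fifth match was to the GATA letters AGATAA in one of the Foxp3 windows, which 11.2% of all windows hold. These matches describe the sequence and are not binding sites.

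Expression values are the deposited FPKM, which scale sequenced fragments by transcript length and library size, so levels can be set side by side between genes. Depth in reads is unknown, and ratios of values under 0.3 FPKM gave relative depths of 0.865 to 1.05 in pericyte libraries and 0.992 to 1.06 in SMC libraries. The FPKM of pericyte replicate 2 summed to 1190435, against 690247 to 782014 in the other 3 pericyte libraries and 656405 to 737839 in SMC libraries. Without that library 9 members were higher in pericytes, as with it. The labels were checked against marker genes. In the pericyte libraries the mural marker Pdgfrb had 5.51, 3.21, 12.5 and 17.6 FPKM, below the 15.6, 17.4, 65.0 and 91.5 FPKM of the SMC libraries except that pericyte replicate 4 overlapped them, and it did not pass the test (limma q = 0.0973). None of 10 mural markers was listed at 0 in a whole group, 0 passed the test as higher in pericytes, and 1 (Rgs5) was higher in SMCs, or 5 with the replicate number as a block. Markers shared by leukocytes went the other way, and Ptprc, which encodes the CD45 that the gate excluded, had 80.6 to 230.3 FPKM in pericyte libraries and 4.34 to 11.9 FPKM in SMC libraries. The summed level of 6 T cell markers was 1294 to 1885 FPKM in pericyte libraries and 16.2 to 27.8 FPKM in SMC libraries, and that of 5 B cell markers was 796 to 2014 and 9.14 to 31.8 FPKM. That of 5 NK cell markers was 924 to 2291 and 15.6 to 23.4 FPKM. All 22 markers on the lists for leukocytes in general, T, B and NK cells passed as higher in pericytes, and none of them was listed at 0 in a whole group. Macrophage markers did not follow them, and 4 of 6 passed as higher in SMCs and 0 as higher in pericytes. All 6 fibroblast markers and 4 of 6 endothelial markers also passed as higher in SMCs (6 of 6 each with the block). By the same test, 10.6% of all genes were called higher in pericytes and 11.2% in SMCs. The part of these markers in the results below was not tested, and in bulk RNA fewer cells of a type and less RNA per cell cannot be told apart.

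Of the 10 members, 9 were higher in pericytes (limma on log2(FPKM + 1), q below 0.05 with Benjamini-Hochberg adjustment over 27414 genes), and Ebf1 did not pass. Over all genes tested, 10.6% were called higher in pericytes at that threshold. The same 9 members had every pericyte library above every SMC library, as had 12.1% of all genes. Of the 9, 7 also passed the log2 fold change of 2 that defines pericyte-enriched genes, namely Spib, Pou2af1, Tcf7, Bcl11b, Gata3, Tbx21 and Eomes, against 3.24% of all genes, while 2.66% passed it in the SMC direction. No member was higher in SMCs by limma at the adjusted threshold (0 of 10), against 11.2% of all genes, and this count is near that share. At an unadjusted p below 0.05 the count was also 0 of 10, for which no share over all genes is given here. The median log2 fold change of the members was 2.55, and that of all genes tested was 0.02. For each of the 9 members the two-sided exact permutation test gave p = 0.0286, the smallest value that 4 against 4 libraries allow.

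**Figure D1:**
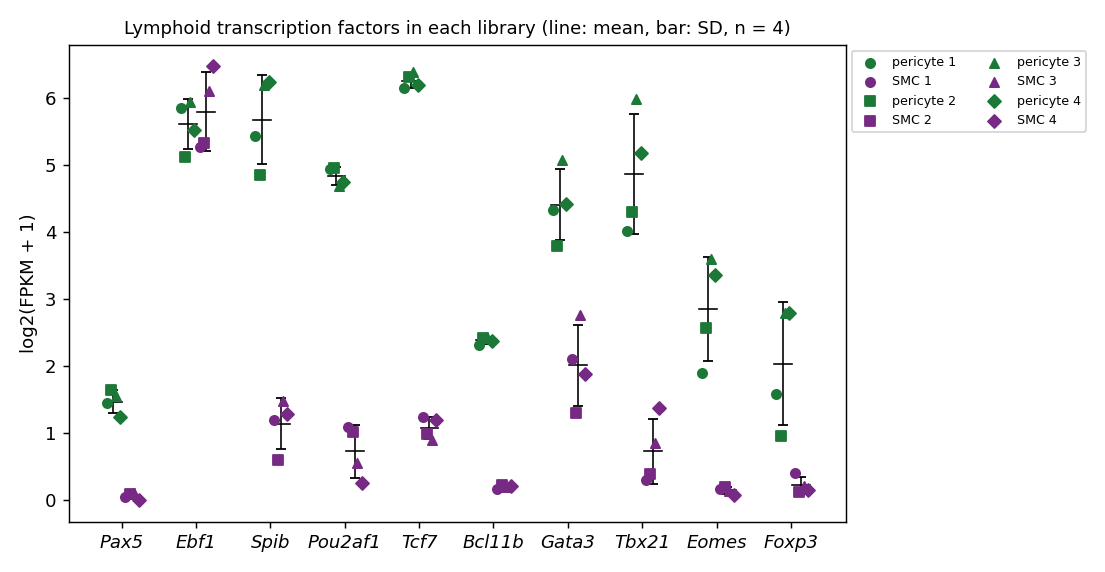
Level of each member, as log2(FPKM + 1), in the 4 pericyte (green) and 4 SMC (purple) libraries, with mean and SD. Every member but Ebf1 had all pericyte points above all SMC points, and Ebf1 lay at about the same height in both groups (means 5.61 and 5.79).

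The B lineage regulators were led by Spib. Spib (chromosome 7 of NCBI Build 37, 51781365 to 51787441, minus strand) had 42.4, 27.8, 71.9 and 74.4 FPKM in pericyte replicates 1 to 4 and 1.28, 0.512, 1.79 and 1.45 FPKM in SMC replicates 1 to 4. The lowest pericyte library was far above the highest SMC library. Pericytes averaged 54.1 ± 22.8 FPKM (SD, n = 4), and SMCs averaged 1.26 ± 0.542 FPKM (SD, n = 4). On the log2 scale the difference was 4.54 with a standard error of 0.35 (limma q = 1.7e-04).

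Pou2af1, the octamer coactivator (chromosome 9, 51021795 to 51048184, plus strand), had similar FPKM in the 4 pericyte libraries. The pericyte values were 29.7, 30.0, 24.9 and 25.8 FPKM, and the SMC values were 1.13, 1.03, 0.461 and 0.196 FPKM. The means were 27.6 ± 2.63 FPKM (SD, n = 4) and 0.704 ± 0.449 FPKM (SD, n = 4), 4.10 apart on the log2 scale with a standard error of 0.20 (limma q = 2.6e-05). In SMCs, replicates 1 and 2 were above replicates 3 and 4, and all stayed under the lowest pericyte value.

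Pax5, the factor that holds B cell identity, was the lowest member in both groups. It lies on chromosome 4 from 44544017 to 44724318 (minus strand) and had 1.74, 2.13, 1.92 and 1.35 FPKM in pericytes and 0.0347, 0.0649, 0.0698 and 0 FPKM in SMCs. Its log2 difference of 1.41, with a standard error of 0.09 (limma q = 8.9e-05), was under the fold threshold, although its mean FPKM was 42.1 times higher in pericytes. Adding 1 to values under 1 FPKM shrinks a fold change. With a pseudocount of 0.1 the log2 fold change of Pax5 was 3.74.

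Ebf1 departed from the other B lineage regulators. The protein-coding gene (chromosome 11, 44430819 to 44821593, plus strand) had 56.7, 33.7, 60.6 and 44.9 FPKM in pericytes and 37.5, 39.3, 67.6 and 87.7 FPKM in SMCs. The groups overlapped, and the highest 2 values were in SMC replicates 3 and 4. Pericytes averaged 49.0 ± 12.2 FPKM (SD, n = 4), while SMCs averaged 58.0 ± 24.1 FPKM (SD, n = 4). The log2 fold change was -0.18 (95% interval -0.94 to 0.57, limma q = 0.758). The two-sided exact permutation test gave p = 0.629 over 8 libraries. The interval leaves out the fold changes of all 9 other members. Without SMC replicate 4 the log2 fold change was 0.041, so its sign rested on that library. The second Ebf1 row, a pseudogene of 453 exonic bases at the 5′ end of the same locus (44430819 to 44431275), was listed at 0 in every library but pericyte replicate 2 (0.66 FPKM).

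The other EBF family genes were read beside it. Ebf2, known from fat-forming and mesenchymal cells, had 3.37, 1.11, 2.76 and 4.43 FPKM in pericytes and 14.8, 14.7, 26.2 and 33.3 FPKM in SMCs, and was higher in every SMC library (log2 fold change -2.57 with a standard error of 0.37, limma q = 0.00274). Ebf4 was also higher in SMCs (log2 fold change -0.45, limma q = 0.0187), at no more than 0.743 FPKM in any library, and its call was lost in 2 of 15 other settings. Ebf3 was at 0.077 to 0.4782 FPKM in pericytes and 0.4783 to 1.53 FPKM in SMCs, so that every SMC library was higher. It did not pass (log2 fold change -0.56, limma q = 0.103), although it passed in 2 of 15 other settings.

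**Figure D2:**
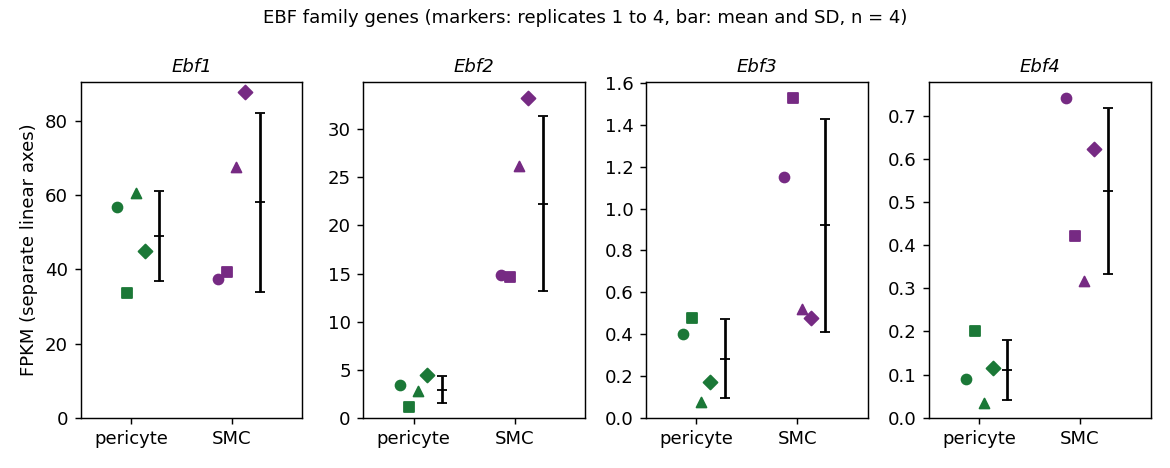
FPKM of the 4 EBF family genes in pericyte (green) and SMC (purple) libraries, each on its own linear axis from 0. Ebf1 overlapped between groups, and Ebf2, Ebf3 and Ebf4 were higher in all SMC libraries, Ebf3 without passing the test.

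Among T lineage regulators, Tcf7 had the highest level of any member in pericytes. Tcf7, which encodes the HMG box factor TCF-1, lies on chromosome 11 from 52065873 to 52096681 (minus strand). It had 69.8, 78.1, 82.3 and 72.5 FPKM in pericytes and 1.36, 0.986, 0.856 and 1.28 FPKM in SMCs. The means were 75.7 ± 5.63 FPKM (SD, n = 4) and 1.12 ± 0.240 FPKM (SD, n = 4), and the log2 difference of 5.18, with a standard error of 0.10 (limma q = 6.4e-07), was the largest among the members. It ranked at 127 of 27414 genes by log2 fold change.

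Bcl11b, a zinc finger factor of T cell commitment (chromosome 12, 109148613 to 109241812, minus strand), was low, with similar FPKM within each group. It had 3.99, 4.33, 4.38 and 4.18 FPKM in pericytes and 0.123, 0.166, 0.138 and 0.151 FPKM in SMCs. The 2 groups did not come near each other, and their log2 difference was 2.19 with a standard error of 0.05 (limma q = 2.0e-06). Its mean FPKM was 29.1 times higher in pericytes.

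Gata3 had the smallest ratio of the 9 members. This zinc finger factor of T cells (chromosome 2, 9778705 to 9811661, minus strand) had 19.2, 12.9, 32.8 and 20.3 FPKM in pericytes and 3.29, 1.47, 5.75 and 2.67 FPKM in SMCs. Replicate 3 was the highest and replicate 2 the lowest in both groups. The log2 difference was 2.40 with a standard error of 0.37 (limma q = 0.00338), and the SMC mean was 15.5% of the pericyte mean. For the other 8 members higher in pericytes that share was 1.48% (Tcf7) to 4.50% (Foxp3), so Gata3 kept the largest share in SMCs of the 9. Differences between members in this share were not tested.

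The T-box factors Tbx21 and Eomes, which drive interferon and cytotoxic genes, varied between pericyte libraries. Tbx21 (chromosome 11, 96959385 to 96976645, minus strand) had 15.2, 18.6, 62.2 and 35.2 FPKM in pericytes and 0.234, 0.304, 0.796 and 1.58 FPKM in SMCs. The difference in log2 level was 4.14 with a standard error of 0.47 (limma q = 8.8e-04). In both groups its replicates 3 and 4 held the 2 highest values.

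Eomes (chromosome 9, 118387330 to 118395250, plus strand) had 2.73, 4.91, 11.1 and 9.25 FPKM in pericytes and 0.118, 0.147, 0.0956 and 0.0572 FPKM in SMCs. No SMC library came near the lowest pericyte library. The difference in log2 level was 2.71 with a standard error of 0.36 (limma q = 0.00174), and its mean FPKM was 67.1 times higher in pericytes, close to the 67.5 times of Tcf7.

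Foxp3, the regulatory T cell factor, had the highest q value of the 9. It lies on chromosome X from 7156802 to 7172369 (plus strand) and had 1.99, 0.944, 5.95 and 5.95 FPKM in pericytes and 0.319, 0.0805, 0.159 and 0.108 FPKM in SMCs. Pericyte replicate 2 was the lowest of its group and still above every SMC library. The log2 difference was 1.81 with a standard error of 0.42 (limma q = 0.0209), under the fold threshold, and 3.56 with a pseudocount of 0.1. Its q value was no longer below 0.05 without SMC replicate 2 (q = 0.0541), without SMC replicate 3 (q = 0.0529) or without SMC replicate 4 (q = 0.0535), with log2 fold changes of 1.78, 1.81 and 1.79.

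**Figure D3:**
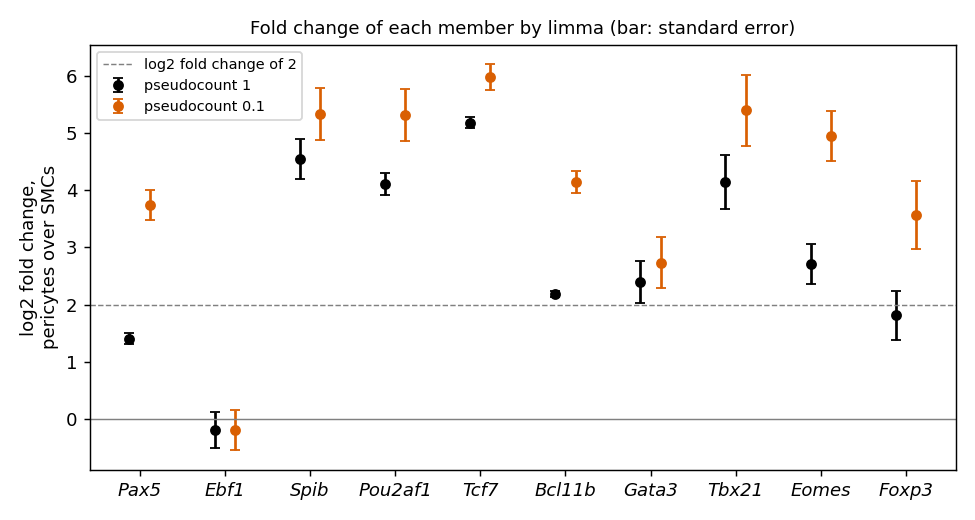
Log2 fold change of each member, pericytes over SMCs, by limma with a pseudocount of 1 (black) and of 0.1 (orange), with standard errors and a dashed line at 2. Pax5 and Foxp3 were below the line with a pseudocount of 1 (1.41 and 1.81) and above it with 0.1 (3.74 and 3.56), and Ebf1 was near 0 with both.

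In SMCs the order of the levels was Ebf1, Gata3, Spib, Tcf7, Tbx21, Pou2af1, Foxp3, Bcl11b, Eomes and Pax5. Ebf1 was apart from all others, at 37.5 FPKM or more, and the next, Gata3, ranged from 1.47 to 5.75 FPKM. The ranges of neighbours from Gata3 to Eomes overlapped. Pax5 was the lowest by its mean (0.0424 FPKM), and its range also overlapped that of Eomes. In pericytes the order was Tcf7, Spib, Ebf1, Tbx21, Pou2af1, Gata3, Eomes, Bcl11b, Foxp3 and Pax5, in which each pair of neighbours overlapped except Gata3 and Eomes, the former at 12.9 FPKM or more and the latter at 11.1 FPKM or less.

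On the deposited FPKM the members fell along a range of spread between pericyte libraries. The coefficient of variation (SD over mean) was 4.12% for Bcl11b, 7.44% for Tcf7, 9.54% for Pou2af1 and 18.6% for Pax5. Only 0.290% of 13102 genes with a pericyte mean of at least 1 FPKM had a smaller value than Bcl11b, 1.56% than Tcf7 and 3.30% than Pou2af1. This low spread depended on the scaling. With each library scaled to the same FPKM sum (TPM), the coefficient was 21.0% for Bcl11b, 22.1% for Tcf7 and 21.6% for Pou2af1, and 17.4%, 19.2% and 18.4% of genes had a smaller value. Pericyte replicate 2 was then the lowest library for these 3 genes. With median-ratio scaling the values were 4.11%, 7.29% and 8.33%, and on FPKM without pericyte replicate 2 they were 4.62%, 8.82% and 9.62%, with a median of 23.8% over all those genes. Without that library 3.76% of genes had a smaller value than Bcl11b, 13.1% than Tcf7 and 14.9% than Pou2af1. On FPKM the coefficient was 24.9% for Ebf1 (41.5% with TPM and 15.2% without pericyte replicate 2), 39.2% for Gata3 and 42.1% for Spib, around the median of 36.2% over those genes. Eomes (55.0%), Tbx21 (65.4%) and Foxp3 (70.7%) varied most, and 90.98% of genes had a smaller value than Foxp3. For Spib, Gata3, Tbx21, Eomes and Foxp3, pericyte replicates 3 and 4 held the 2 highest values of the group, as in 24.5% of the 13612 genes averaging 1 FPKM or more. With TPM this held for 4 of them, without Gata3. The reverse held for Pou2af1 on FPKM, as in 27.4% of genes, and for 0 members with TPM. The pericyte libraries also differed in other ways, and the summed level of 3 Schwann cell markers was 32.7, 22.1, 217.9 and 201.2 FPKM in replicates 1 to 4. That of 6 T cell markers was 1326, 1885, 1435 and 1294 FPKM. The sums were 1342, 2014, 895 and 796 FPKM for 5 B cell markers and 924, 2291, 1274 and 937 FPKM for 5 NK cell markers. These marker sums are on the deposited FPKM, whose total was largest in pericyte replicate 2 (1190435), and were not rescaled. Their order between libraries may therefore differ with TPM. The part of these markers in the spread of the members was not tested.

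**Figure D4:**
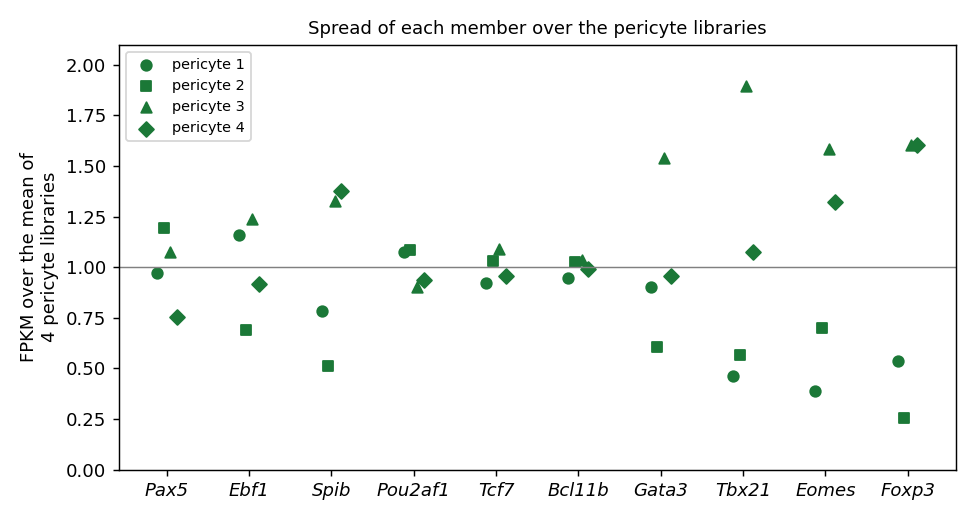
FPKM of each member in the 4 pericyte libraries, divided by the mean of those libraries. On this scale Bcl11b, Tcf7 and Pou2af1 stayed between 0.901 and 1.09 of their means (0.697 to 1.27 with TPM scaling), whereas Tbx21 ran from 0.463 to 1.90 and Foxp3 from 0.255 to 1.60.

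Genes that act with the members were then counted from lists. All 11 B cell genes were higher in pericytes, among them Cd79a, a signalling chain of the B cell receptor (log2 fold change 6.12). Of 11 T cell genes 10 were higher in pericytes, with Cd3d at 5.95 and Cd3e at 5.89. Cd4 did not pass (log2 fold change 2.65, limma q = 0.0747) but passed in 3 of 16 other settings. It had 11.2 to 43.5 FPKM in pericytes and 0.634, 0.914, 5.09 and 20.2 FPKM in SMC replicates 1 to 4. Without SMC replicate 4 its log2 fold change was 3.39 (limma q = 0.0148). All 10 effector and NK genes were higher in pericytes, with Nkg7 at 5.97 and Gzma at 5.59. The background share called higher in pericytes was 10.6%, and the median log2 fold changes of these lists were 4.74, 5.03 and 4.48, against 0.02 over all genes tested. Several of these genes are also lymphocyte markers above, and are not independent of them.

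Of 7 genes that accompany Foxp3 in regulatory T cells, 5 were higher in pericytes, 1 was higher in SMCs and 1 did not pass, against 10.6% and 11.2% of all genes tested in the 2 directions. Tnfrsf18, a costimulatory receptor, had a log2 fold change of 4.09 (limma q = 4.7e-05) and Ctla4, an inhibitory receptor, had 3.71 (limma q = 4.1e-04). Il2ra, the alpha chain of the interleukin receptor typical of these cells, had 4.58, 6.05, 10.2 and 12.2 FPKM in pericytes and 0.492 to 0.661 FPKM in SMCs. Ikzf4, an Ikaros family factor, was higher in every SMC library (log2 fold change -1.36, limma q = 0.0121). Lrrc32 did not pass, with 4.12 to 36.1 FPKM in pericytes and 13.9 to 111.2 FPKM in SMCs, and it passed as higher in SMCs in 1 of 16 other settings.

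Other regulators of lymphocytes were counted in the same way, beside the 10.6% of all genes called higher in pericytes and the 11.2% called higher in SMCs. Of 11 other B lineage regulators 7 were higher in pericytes, 1 was higher in SMCs and 3 did not pass. With the replicate number as a block 9 were higher in pericytes and 0 in SMCs. Irf8 (limma q = 0.00584) and Foxo1 (limma q = 0.0396) then passed as higher in pericytes. Ikzf1 and Ikzf3, the Ikaros family factors of lymphocytes, had log2 fold changes of 4.30 (limma q = 4.0e-04) and 3.88 (limma q = 1.3e-04). Xbp1, a factor of secretory cells that is also used outside the blood, was higher in SMCs (log2 fold change -0.60, limma q = 0.0304), a call that was lost in 9 of 16 other settings. Of 15 other T and innate lymphoid regulators 8 were higher in pericytes, 2 were higher in SMCs and 5 did not pass. Lef1, the close relative of Tcf7, had 113, 58.3, 134 and 96.2 FPKM in pericytes and 0.815, 1.40, 3.04 and 1.81 FPKM in SMCs, and its log2 fold change was 5.19 (limma q = 6.8e-05). Satb1, a chromatin organiser of T cells, had 5.18 (limma q = 3.2e-05). Id3, an inhibitor of E proteins, was higher in SMCs (log2 fold change -1.82, limma q = 0.00969), as was Bhlhe40 (-1.23, limma q = 0.0472), whose call was lost in 11 of 16 other settings.

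Members of the same protein families were compared with the 10 genes. Of 34 paralogs, 2 were higher in pericytes, 9 were higher in SMCs and 23 did not pass, with a median log2 fold change of -0.18. Over all genes tested, 10.6% were called higher in pericytes and 11.2% in SMCs. The 2 paralogs higher in pericytes were Foxp1 (log2 fold change 2.58, limma q = 2.6e-04), a forkhead factor used in B and T cells and elsewhere, and Bcl11a (2.53, limma q = 7.4e-05), the B lineage relative of Bcl11b. Bcl11a had 9.68, 8.21, 8.14 and 6.02 FPKM in pericytes and 0.592, 0.346, 0.899 and 0.380 FPKM in SMCs. Ebf2 (-2.57) and the mesenchymal T-box factor Tbx15 (-2.39, limma q = 0.00190) led the paralogs higher in SMCs. Tbx15 had 0.516 to 2.37 FPKM in pericytes and 8.73 to 15.4 FPKM in SMCs, the opposite direction to Tbx21 and Eomes. Across the settings tried, the number of paralogs higher in pericytes was always 2, and the number higher in SMCs was 3 to 11.

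**Figure D5:**
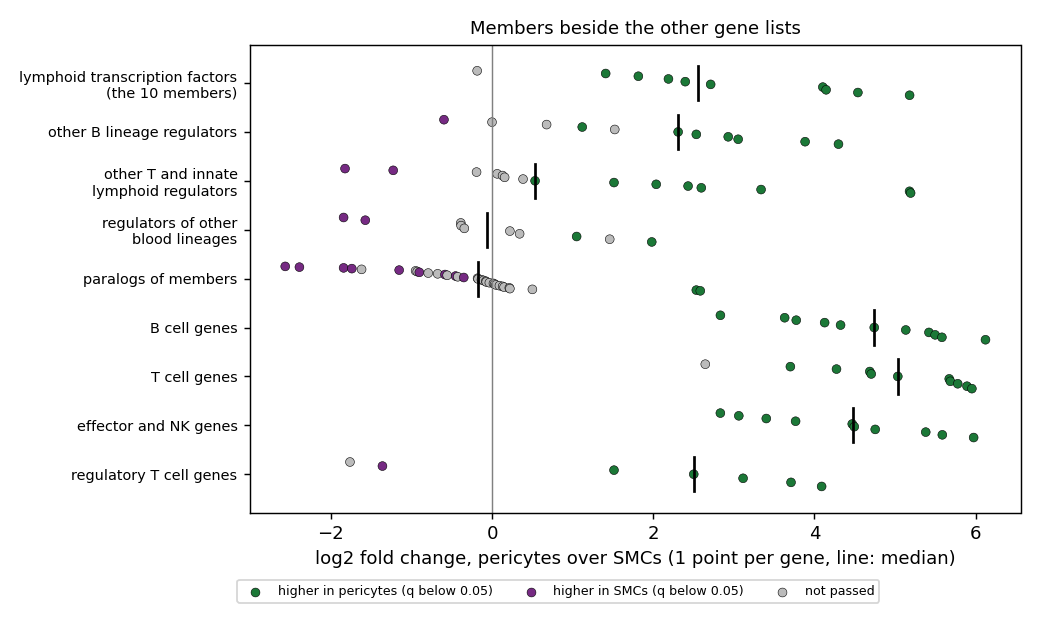
Log2 fold change of each gene, pericytes over SMCs, in the members and 8 other lists, with the median of each list as a line. Green and purple points passed the limma threshold and grey points did not. The B cell, T cell and effector lists lay to the right of 2, the paralogs centred near 0 (median -0.18), and 9 of 10 members were green.

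Genes with the most similar profile over the 8 libraries were named by the root mean square difference of log2(FPKM + 1), each gene centred on its own mean, among genes averaging 1 FPKM or more. For Tcf7 the nearest were the lymphocyte receptor Cd96 (0.15), Gramd3 (0.17) and Cd5 (0.17). For Pou2af1 they were Haao (0.15), the B cell surface gene Cd72 (0.22) and Stk17b (0.22). Tbx21 was nearest to Ikzf3 (0.37), Ikzf1 (0.38) and Ptpn7 (0.39), Eomes to Dtx1 (0.19), Il2ra (0.22) and Trbv23 (0.25), and Gata3 to B3gnt7 (0.20), Tox (0.29) and Map3k1 (0.31). Bcl11b was nearest to Clnk (0.089), Trim13 (0.12) and Kynu (0.13), Spib to Rasal3 (0.19), the cytotoxic gene Prf1 (0.27) and Ighv1-22 (0.28), and Foxp3 to Kcna3 (0.20), Trav13d-4 (0.23) and Traf3 (0.23). Ebf1 was nearest to Def8 (0.13), Insr (0.14) and Dlat (0.15). No neighbours were named for Pax5. These distances describe 8 libraries in 2 groups and carry no test.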

How the data were processed

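RNA of 4 pericyte and 4 SMC samples was amplified with a SMART-Seq kit and sequenced as paired reads. Per the labels and the paper's methods, the authors aligned reads with Bowtie2 and TopHat to mouse NCBI Build 37 with an Ensembl annotation, and deposited FPKM per gene and library with no log transform or filter. The program behind FPKM, and whether counting used strand, are not given in the sources used here; Pax5, Ebf1, Tcf7, Gata3 and Foxp3 overlap other annotated genes, so their values may include reads of those. The labels do not separate batches, and nothing says that libraries with the same number share animals. The paper proposes that individual differences and batch effects may add to the variation among replicates, because sorts were combined. Replicates are pools of sorts and the labels name no animals, so p-values measure only the spread between these libraries.

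Here log2(FPKM + 1) was fitted by group with limma (version 3.58.1, lmFit and eBayes; R 4.3.3) over 27414 genes above 0 FPKM in at least 1 library, with Benjamini-Hochberg adjustment. The fit was checked on simulated data. There it called 6 of 50 genes with a log2 change of 1, 28 of 50 with 2 and 46 of 50 with 4. A gene that did not pass may therefore still differ between the groups. A fold change on this scale understates that of low genes. All 10 members passed that filter. Exact permutation tests and figures used Python 3.11.15 with matplotlib 3.10.9, pandas 2.3.3, numpy 2.4.6 and scipy 1.17.1. Gene positions came from GENCODE version M1 (NCBI Build 37), which holds 37195 of 37979 identifiers. Promoters came from RefSeq on GRCm38.p6, a different build, and protein sequences were not used here. Spi1 was matched by its older symbol Sfpi1.

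The members and the gene lists were chosen with earlier results of these data known. From each list the text names the 2 genes called with the most extreme change each way, of which some are not reported here. Ebf3, Ebf4, Il2ra, Cd4, Lrrc32, Irf8, Foxo1 and Klf1 fall outside that rule and were picked with their values known. Markers of macrophages (4 of 6 higher in SMCs), plasma cells (2 of 5 higher in pericytes), Schwann cells, muscle fibres and erythroid cells (0 of 3 each) were also read. Alternatives were a pseudocount of 0.1, 1 FPKM in at least 4 libraries, all listed genes, TPM, median-ratio and quantile scaling, the replicate block, an intensity trend and each library left out. The spread of the members under TPM and median-ratio scaling and without pericyte replicate 2 was added after seeing the data.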

Additional observations from a re-analysis of the deposited data

Results flagged for a closer look

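The pseudogene row of Ebf1 was listed at 0.66 FPKM in pericyte replicate 2 and at 0 in the other 3 pericyte libraries, so that this library stood apart from its group. It was the only such value among 21 groups of 4 libraries examined over the 11 rows of the members. With the other 3 pericyte libraries at 0, any value above 0 would have been flagged. The chance rate of about 1 in 20 therefore does not apply to it. The row lies inside the locus of the protein-coding Ebf1, which had 33.7 FPKM in the same library, its lowest in the pericyte group. No other value met the criterion.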

How the results depend on the processing

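Of 143 refits of the 9 members higher in pericytes, 140 kept direction and threshold, 0 reversed and 3 lost the threshold, all 3 for Foxp3 as given in the report. The number of members higher in pericytes was 8 or 9 in the 16 alternatives, and 8 to 9 with 1 library left out. It was 8 with the filter at 1 FPKM in at least 4 libraries, which Foxp3 and the second Ebf1 row did not pass, so they have no value there. The number also past a log2 fold change of 2 was 7 to 9. The log2 fold change of Ebf1 (-0.18) was -0.42 with TPM scaling and -0.36 to 0.041 with 1 library left out, and the reversal to 0.041 came without SMC replicate 4. TPM scaling moved the median log2 fold change of genes averaging 1 FPKM or more from 0.05 to -0.16. A pseudocount of 0.1 raised the number of genes enriched in SMCs from 728 to 1421 and in pericytes from 888 to 1328. The cause was not tested. With 1 library left out these numbers were 607 to 774 and 845 to 885.

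With the replicate number as a block, 9 members were again higher in pericytes, and the q value was 0.0419 for Foxp3 and 9.5e-04 for Tcf7. The block called some genes that had not passed. Among them were Lrrc32 (q = 0.00941), Ebf3 (q = 0.0227) and Pdgfrb (q = 0.00601) as higher in SMCs. Cd4 (q = 0.0317), Irf8 (q = 0.00584) and Foxo1 (q = 0.0396) were among those then called higher in pericytes. Some calls were lost, such as those of Xbp1 (q = 0.0895) and Gata2 (q = 0.0513). Of the 10 mural markers 5 then passed as higher in SMCs, and of the 6 endothelial markers 6. Over all genes, 881 were enriched in pericytes and 739 in SMCs. Same-numbered libraries correlated at 0.0794 to 0.474 (mean 0.327 across 13612 genes) in their deviations from group means, and 5 of 8 libraries correlated best with their own number. The pair numbered 1 was under the 0.1 set as the limit for pairing, so the fit without the block was kept, although the deviations were shared in part. Values under 1 FPKM, such as those of Pax5, Eomes and Bcl11b in SMCs, have no known number of reads behind them.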

Other observations

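Regulators of other blood lineages were read beside the members. Of 10 such genes, 2 were higher in pericytes, 2 were higher in SMCs and 6 did not pass, against 10.6% and 11.2% of all genes tested. With the replicate number as a block 3 were higher in pericytes and 1 was higher in SMCs. Sfpi1, which encodes the ETS factor PU.1 of myeloid and B cells, had 34.6, 66.2, 86.7 and 108.4 FPKM in pericytes and 11.3, 12.3, 19.2 and 27.4 FPKM in SMCs (log2 fold change 1.98, limma q = 0.0130). Gfi1, a repressor of lymphoid and granulocyte cells, had 0.773 to 2.31 FPKM in pericytes and was listed at 0 in 3 SMC libraries (limma q = 0.0103). Gata2, a factor of blood progenitors and endothelium, was higher in every SMC library (log2 fold change -1.84, limma q = 0.0245), a call that was lost in 7 of 16 other settings. The erythroid factor Klf1 stayed at or under 1.63 FPKM in all libraries.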
